A study of Mus musculus with 6 samples.

Results

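Myoblasts adhere to each other and then fuse into multinucleated myotubes, and 8 genes of that process are described here, out of 23830 mouse genes with a RefSeq transcript. They were chosen by name for their known roles: Tmem8c (the older symbol of Mymk, myomaker), Cdh15, Cdh2, Ncam1, Cdon, Boc, Neo1 and Adam12. Chromatin came from primary myotubes of wild type C57BL/6 mice. Myoblasts taken from fetal (E18.5) limb muscle and carried to passage 17 were kept for 48 hours in DMEM with 2% horse serum, in which they form myotubes. Protein contacts were fixed with disuccinimidyl glutarate ahead of formaldehyde. DNA bound by Sox6 (a rabbit polyclonal antibody) or by RNA polymerase II (Pol II; the mouse monoclonal antibody 4H8 against the repeats of its C-terminal domain) was immunoprecipitated in 2 experiments each and sequenced (ChIP-seq), and 2 libraries of input DNA serve as the background. All 6 libraries are from the same kind of cell, so each comparison is of an antibody with input, and nothing in it shows what happens to a gene when Sox6 is absent. Chromatin was pooled from many cultured cells, and a gene bound in fewer cells cannot be told apart from one bound less in every cell.

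Adhesion is the step before fusion. Cadherins hold neighboring myoblasts together, the immunoglobulin-like receptors Cdon and Boc sit beside them in the same membrane and pass the signal of contact on to the muscle program, and myomaker then acts at the merging of the membranes. Sox6 is a transcription factor with a DNA-binding HMG domain that is best known in muscle for holding back slow fiber genes, while Pol II along a gene reports transcription at the time of fixation.

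Reads numbered 2985437 and 1468604 in the Sox6 libraries, 1538757 and 2762155 in the Pol II libraries, and 21973495 and 24249850 in the inputs. Values in RPM, reads for each 1000000 of a library, are scaled to these totals. The window of 1 kb either side of a gene start held a median of only 3 and 2 Sox6 reads and 2 and 3 Pol II reads, so values at single starts are coarse. The 2 libraries of a kind came from separate experiments on cells described in the same way. P-values of the limma fits rest on the spread between such libraries alone, with variance pooled over genes. They do not measure how well the 2 libraries agree at a single gene. Of 10 markers of myotubes, 10 had more Pol II than input at their starts, with a median log2 ratio of 5.18, where 40.2% of all 22473 genes tested were higher and 1.41% lower. None of 7 fibroblast markers did, and 1 of them was lower. In the other marker lists the numbers higher were 2 of 3 for progenitors, 2 of 6 for neural cells, 0 of 3 for endothelium, 1 of 3 for blood and 0 of 1 for liver.

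The clearest Sox6 signal near these genes was in the first intron of Ncam1. Peaks of the deposited list shared by both Sox6 experiments are called common peaks here. They lay in or within 20 kb of 2 of the 8 genes, Ncam1 with 2 and Neo1 with 1, where 4.26% of all genes have one. That share is not matched to gene length, and Ncam1 and Neo1 span 294 and 162 kb. The 3 intervals are printed here because the Sox6 results turn on them. They were read from the plus strand of the mm9 genome, and capitals mark matches, on either strand, to the Sox core (ACAAAG or ACAATG) or to an E-box of the kind bound by myogenic bHLH factors (CAGCTG or CAGGTG).
Ncam1 intron 1, chr9:49462862-49463001: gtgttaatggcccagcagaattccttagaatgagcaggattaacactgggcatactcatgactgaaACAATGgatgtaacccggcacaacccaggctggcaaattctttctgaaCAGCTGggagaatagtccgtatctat
Ncam1 upstream, chr9:49622842-49622961: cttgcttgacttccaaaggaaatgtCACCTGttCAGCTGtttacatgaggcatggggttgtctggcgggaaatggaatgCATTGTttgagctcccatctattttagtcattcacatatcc
Neo1 intron 22, chr9:58738922-58739041: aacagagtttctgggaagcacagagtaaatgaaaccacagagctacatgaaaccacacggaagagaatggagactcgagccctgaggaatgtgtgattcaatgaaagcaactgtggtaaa

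Both Ncam1 intervals hold a Sox core and at least 1 E-box, and the common Neo1 interval holds neither. The replicate 2 form of the Neo1 peak, chr9:58738792-58738991, reaches further and holds a Sox core outside the common interval. Among all 1066 common peaks, 52.0% hold a Sox core and 55.5% an E-box. In place of these, the Neo1 interval has 3 matches to the Runx core (CCACA, either strand), which 60.8% of common peaks carry, and 1 to the Tead core (GGAATG, either strand), found in 23.4%. The upstream Ncam1 interval has 1 Tead match as well. In the list of replicate 2, 37.2% of peaks hold a Sox core and 43.7% an E-box. Matches are to letters only and show no binding.

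The next intervals are from peaks of a single Sox6 replicate, shown for Tmem8c and Cdh15, the genes with the most Pol II, again on the plus strand of mm9 with Sox and E-box matches in capitals.
Tmem8c downstream, chr2:26914732-26914791: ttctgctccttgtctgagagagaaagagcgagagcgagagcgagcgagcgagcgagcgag
Cdh15 intron 1 near, chr8:125373252-125373311: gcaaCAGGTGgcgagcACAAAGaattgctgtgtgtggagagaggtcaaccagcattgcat
Cdh15 intron 1 far, chr8:125374812-125374871: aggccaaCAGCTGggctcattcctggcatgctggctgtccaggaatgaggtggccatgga

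Pol II binding separated the genes widely. Tmem8c, a muscle protein of the plasma membrane that myoblasts need in order to fuse, carried 19.5 and 20.8 RPKM (RPM per kb of gene) in Pol II replicates 1 and 2, against 0.634 and 0.931 RPKM in the inputs. That is above 99.5% and 99.6% of all genes. Cdh15 (M-cadherin, the muscle cadherin) followed with 11.1 and 13.3 RPKM, and Ncam1, the neural cell adhesion molecule that myoblasts also display, with 6.74 and 7.10 RPKM. By all reads over the gene, these 3 were the members above 0.1 of the level of Actb, which had 26.4 and 35.8 RPKM. Embryonic myosin, Myh3, had 73.3 and 77.8 RPKM. Actb, the beta-actin gene, is the yardstick of the study, which counted only reads in Pol II peaks. By reads in the deposited Pol II peaks, Ncam1 had 1.43 and 3.41 RPKM here and Actb 27.4 and 33.2 RPKM. The study reported a much lower level for Actb by its own count, so these values are not on its scale. Ncam1 was then below 0.1 of Actb in replicate 1 and slightly above it in replicate 2. Tmem8c and Cdh15 stayed above it in both.

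Cdh2 (N-cadherin) and Cdon stood in the middle. Cdh2 had 2.48 and 2.58 RPKM of Pol II and Cdon 2.23 and 2.59 RPKM, and since the replicates of these neighbors overlap, their order is not given by the data. Input over the same genes was 0.751 and 0.707 RPKM for Cdh2 and 0.773 and 0.700 RPKM for Cdon. Neo1 (neogenin, a receptor of netrins and of the repulsive guidance molecules that associates with Cdon) had 0.711 and 0.754 RPKM, and Boc, a receptor closely related to Cdon, had 0.466 and 0.637 RPKM. In both, Pol II differed little from input, which gave 0.692 and 0.629 RPKM over Neo1 and 0.499 and 0.530 RPKM over Boc. Adam12, a transmembrane disintegrin and metalloproteinase also called meltrin alpha, was last with 0.260 and 0.265 RPKM and lay below its inputs of 0.484 and 0.451 RPKM. The median gene had 0.411 and 0.397 RPKM of Pol II.

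**Figure D1:**
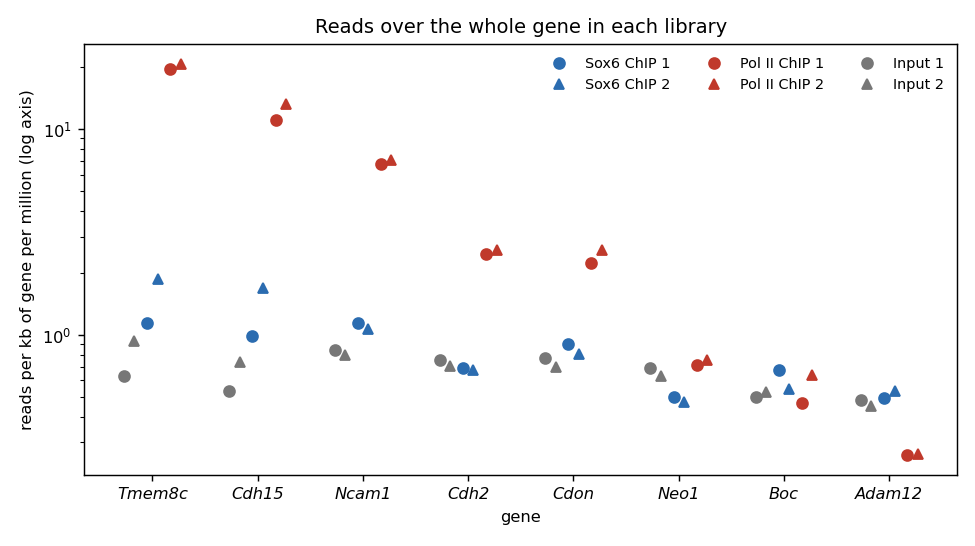
Reads over the whole gene, in RPKM on a log axis, for the 8 genes ordered by Pol II, with 1 point per library (circles replicate 1, triangles replicate 2). Pol II lies far above input at Tmem8c, Cdh15 and Ncam1, close to it at Neo1 and Boc, and below it at Adam12, where the Pol II libraries gave 0.260 and 0.265.

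The deposited Pol II peak lists gave an order of their own. Ncam1 held 127 and 180 Pol II peaks in replicates 1 and 2, Cdh15 9 and 12, Cdh2 6 and 15, and Tmem8c 5 and 3. Cdon held 0 and 4, Adam12 1 and 1, and Boc and Neo1 none in either list. The genes run from 10.5 kb (Tmem8c) to 342 kb (Adam12) in length, and the numbers are not scaled to it.

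At the gene starts, 7 of the 8 genes had more Pol II than input (limma, a linear model with pooled variance, on log2 RPM, Benjamini-Hochberg adjusted p under 0.05 over all genes tested), and none had less, beside 40.2% and 1.41% of all genes. The median log2 ratio was 2.58 over the 8 genes and 0.74 over all genes. Tmem8c, which starts at chr2:26927699 on the minus strand, had 59 and 112 Pol II reads (38.3 and 40.5 RPM) beside 40 and 43 input reads (1.82 and 1.77 RPM). The log2 ratio was 4.45 (SE 0.23, adjusted p = 8.42e-80), and the replicates of Pol II and of input lay far apart.

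Cdh15, from chr8:125371866 on the plus strand, had 22 and 89 Pol II reads at its start, which is 14.3 and 32.2 RPM, against 26 and 33 input reads (1.18 and 1.36 RPM). Its log2 ratio was 4.08 (SE 0.27, adjusted p = 2.65e-48). Pol II replicate 2 was well above replicate 1 there, and both exceeded the inputs. The SE, pooled over genes, was little larger than the 0.23 of Tmem8c, whose Pol II replicates lay closer together. Gm20388, annotated on the same strand, overlaps Cdh15, and reads of the pair cannot be told apart. The start of Cdh2, at chr18:16967755 on the minus strand, held 5 and 11 Pol II reads (3.25 and 3.98 RPM) against 11 and 12 from input (0.501 and 0.495 RPM). There the log2 ratio was 2.89 (SE 0.56, adjusted p = 9.00e-07).

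For Ncam1, at chr9:49606834, on the minus strand, 33 and 74 Pol II reads (21.4 and 26.8 RPM) stood against 22 and 20 input reads (1 and 0.825 RPM), which gave a log2 ratio of 4.70 (SE 0.29, adjusted p = 1.02e-58). Its margin over Tmem8c was smaller than its own SE. The order of the genes moved with the window. With 500 bp either side of the start Tmem8c had 4.85, Ncam1 4.64, Cdh2 3.85, Cdon 2.94 and Cdh15 2.35. With the start of the shortest model Tmem8c had 4.22, Cdh15 4.08, Cdh2 3.85 and Ncam1 3.56. Gm11149 and Gm17616 on the opposite strand overlap Ncam1, as Gm15485 does Cdh2, and ChIP reads carry no strand of transcription, so their signal cannot be told apart. Ncam1 has further annotated starts 229 and 256 kb into the gene, with log2 ratios of 2.71 and 3.56, so none of them exceeded the first.

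The receptors had few reads at their starts. Cdon (chr9:35229182, plus strand) had 4 and 12 Pol II reads against 17 and 26 input reads, a log2 ratio of 1.96 (SE 0.47, adjusted p = 9.47e-05). An internal start of Cdon, 30.5 kb further on, had 10 and 18 Pol II reads against 20 and 30 from input and a log2 ratio of 2.64, which was not tested against the first. Boc (chr16:44559010, minus strand) had 7 and 8 reads against 19 and 33 (log2 ratio 1.81, SE 0.43, adjusted p = 0.000113). A small RNA annotated on the same strand starts within 1 kb of the start of Boc, and reads of the pair cannot be told apart there. Small RNAs also lie within Cdon and Adam12. Neo1 (chr9:58884248, minus strand) had 6 and 5 reads against 12 and 15 (log2 ratio 2.27, SE 0.58, adjusted p = 0.00033).

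Adam12 was the exception. Its start, at chr7:141416780 on the minus strand, had 0 Pol II reads in both libraries against 17 and 20 input reads (0.774 and 0.825 RPM). A count of 0 over both libraries allows up to 0.698 RPM, so that the start cannot be called empty at this depth. The fitted log2 ratio of -1.76 (adjusted p = 0.0951) depends on the 0.5 reads added to every count and is no bound. With Adam12 at the log2 ratio that 3 reads over both libraries would give, -0.20, the median of the 8 genes is still 2.58.

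Over the gene bodies, from 1 kb past the start to the end, 5 of the 8 genes had more Pol II than input and 1 had less, where 36.8% and 26.4% of all 19822 genes tested were higher and lower. Tmem8c had 267 and 506 Pol II reads against 134 and 218 input reads, a log2 ratio of 4.59 (SE 0.17, adjusted p = 1.54e-07). Cdh15 had 311 and 635 reads against 213 and 327 (4.24, SE 0.16, adjusted p = 1.34e-07). In both of these short genes the ratio over the body was near that of the start window of 1 kb either side. With 500 bp either side, the start of Cdh15 had a ratio of 2.35, well below its body, and that of Tmem8c 4.85.

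The 294 kb of Ncam1 held 3033 and 5726 Pol II reads over the body, against 5443 and 5700 input reads from libraries many times deeper. Scaled to depth this is 1971 and 2073 RPM of Pol II against 248 and 235 RPM of input, a log2 ratio of 3.07 (SE 0.06, adjusted p = 8.01e-09). Cdh2 gave 838 and 1567 reads against 3637 and 3778 (log2 ratio 1.79, SE 0.07, adjusted p = 1.28e-07). For Cdon the counts were 287 and 596 against 1430 and 1420, with a log2 ratio of 1.70 (SE 0.10, adjusted p = 1.51e-06).

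Neo1 and Boc passed the test at their starts but not over their bodies. The body of Neo1 had 177 and 335 Pol II reads against 2455 and 2461 (115 and 121 RPM against 112 and 101 RPM), with a log2 ratio of 0.15 (adjusted p = 0.149). Boc had 48 and 122 reads against 800 and 934 (31.2 and 44.2 RPM against 36.4 and 38.5 RPM), and a log2 ratio of -0.00 (adjusted p = 0.988). Adam12 fell below input over its body, with 137 and 250 Pol II reads against 3625 and 3726, which is 89.0 and 90.5 RPM against 165 and 154 RPM (log2 ratio -0.82, SE 0.08, adjusted p = 2.80e-05). Scaling to the reads away from peaks in place of all reads raises every Pol II ratio, and the median of all bodies from 0.06 to 0.56. Neo1 and Boc then passed the test over their bodies, at 0.65 and 0.50, while Adam12 stayed below input at -0.32 (adjusted p = 0.00534). With that scaling 9345 of all 19822 genes were higher over the body and 2882 lower.

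**Figure D2:**
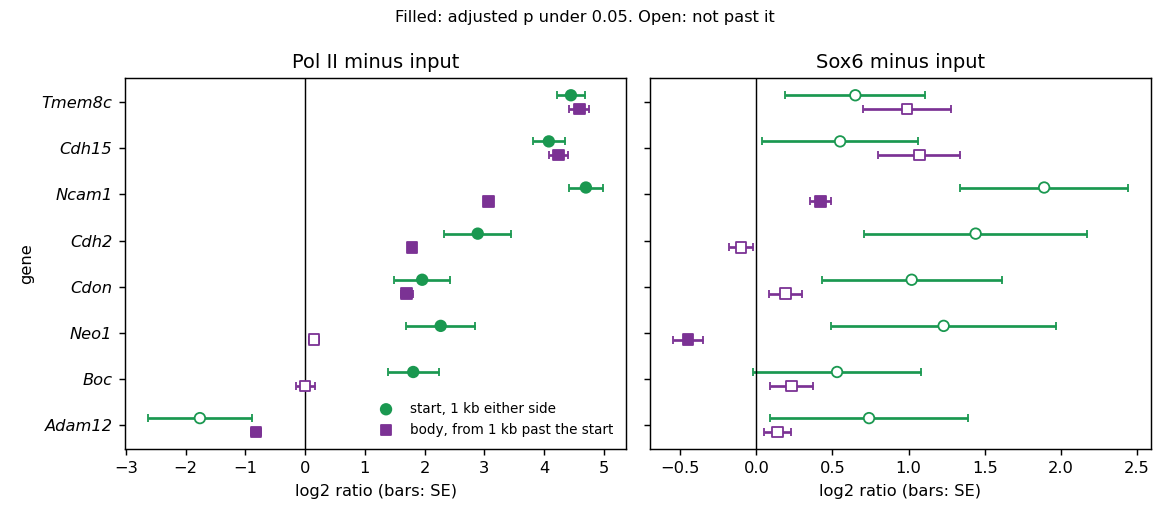
Log2 ratio of Pol II (left) and Sox6 (right) to input at the start (green circles) and over the body (purple squares) of each gene, from limma on 2 libraries of each kind, with bars for the SE; filled symbols passed an adjusted p of 0.05. Start and body lie close together for Tmem8c and Cdh15, Neo1 and Boc have filled symbols for Pol II at the start alone, and Sox6 passed over the bodies of Ncam1 (0.42) and Neo1 (-0.45, below input).

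The difference between start and body was tested as well, a comparison added after these values had been seen. The log2 ratio at the start exceeded that of the body by 2.11 for Neo1 (SE 0.45, adjusted p = 0.0342), by 1.64 for Ncam1 (SE 0.26, adjusted p = 0.0205) and by 1.10 for Cdh2 (SE 0.27, adjusted p = 0.0477), where 12.9% of all genes passed in that direction and 1.02% in the other. For Boc it was 1.81 (SE 0.49), with an adjusted p of 0.0578. In Tmem8c and Cdh15 the difference was -0.14 and -0.16, and in Cdon 0.26. Over all genes the median difference was 0.73. These calls are fragile: without Input replicate 1 or without Input replicate 2 none of the genes passed, with adjusted p from 0.331 to 0.446 for Neo1, Ncam1 and Cdh2.

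Each gene was also divided into 10 equal segments. Over Ncam1 the ratio of Pol II to input stayed between 7.12 and 11.5 in every segment and both replicates, and over Cdh2 between 2.17 and 4.14. Pol II covered these long genes from one end to the other. In Tmem8c the ratio was 49.5 and 43.9 in the first segment, 14.3 and 9.88 in the seventh, and 63.2 and 21.7 in the last. The last values rest on 31 and 52 Pol II reads and on only 7 and 21 input reads. Cdh15 had a similar dip, from 34.2 and 38.3 in the first segment to 9.09 and 8.78 in the fifth. Cdon ranged from 1.62 to 5.76, with its maximum in the third segment for replicate 1 (3.71) and just after it for replicate 2. Boc ranged from 0.451 to 1.73 and Neo1 from 0.601 to 1.69. All 20 values of Adam12 were below 1, from 0.320 to 0.746.

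**Figure D3:**
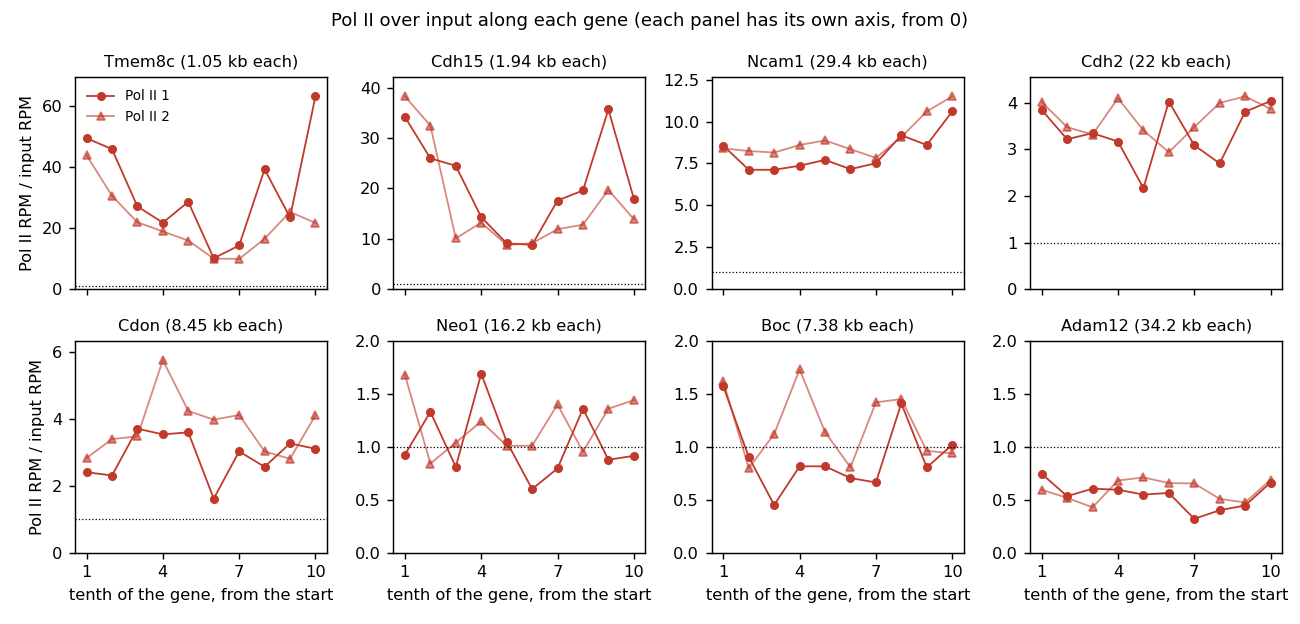
Ratio of Pol II to input RPM in 10 equal segments of each gene from its start to its end, with 1 line per Pol II replicate, a separate axis for each gene and a dotted line where Pol II equals input. Ncam1 stays between 7.12 and 11.5 throughout, Tmem8c and Cdh15 dip in the middle, and Adam12 stays between 0.320 and 0.746.

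Sox6 at the gene starts did not pass the test for any of the 8 genes, beside 0.403% of all genes. One of them, Ncam1, had an unadjusted p under 0.05, as did 3123 of all 22574 genes. Ncam1 had 5 and 9 Sox6 reads (1.67 and 6.13 RPM) against 22 and 20 from input, a log2 ratio of 1.89 (SE 0.55, adjusted p = 0.145). Replicate 2 stood well above replicate 1 there. Ncam1 passed with no filter on low counts (adjusted p = 0.0376) and with the replicate number as a block (adjusted p = 0.0241). Ratios of the 8 genes ran from 0.53 to 1.89 around a median of 0.88, and over all genes the median was 0.42. Starts held between 1 and 9 Sox6 reads, so that enrichment may have been missed at this depth. In fits with a single Sox6 library, 6 of the 8 genes passed without replicate 1 and 1 without replicate 2, but so did 9071 and 4265 of all 22574 genes.

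Over the bodies, Sox6 exceeded input in Ncam1 and was below it in Neo1, where 4.64% and 1.51% of all genes were higher and lower. The median log2 ratio over all bodies was 0.16. Ncam1 had 996 and 459 Sox6 reads against 5443 and 5700 input reads (log2 ratio 0.42, SE 0.07, adjusted p = 0.0255). Ratios of the replicates to their inputs were 1.35 and 1.33. Leaving out the reads within 1 kb of the intronic common peak brought them to 1.2 and 1.16, which were not tested. Neo1 had 240 and 110 reads against 2455 and 2461 (log2 ratio -0.45, SE 0.10, adjusted p = 0.0372). With an equal value in RPM added to every library neither passed (adjusted p = 0.0708 and 0.0752), and Neo1 also lost its call without Input replicate 1 (adjusted p = 0.485) and without Input replicate 2 (adjusted p = 0.0649). Cdh15, at 1.07 (adjusted p = 0.0557), and Tmem8c, at 0.99 (adjusted p = 0.0782), missed the threshold in spite of higher ratios. Both passed with the replicate number as a block, a fit given in the last paragraph with its calls over all genes. Cdh15 also passed with repeated positions counted once, 2 reads added, voom weights or the scaling to reads away from peaks (adjusted p from 0.0169 to 0.0497). Without Input replicate 1 the adjusted p was 0.286 for Cdh15 and 0.689 for Tmem8c, and without Input replicate 2 it was 0.00566 and 0.0597. With Sox6 replicate 1 or 2 left out both genes passed, as did 6888 and 4141 of all 19844 genes. These are also the genes with the most Pol II over the body, at log2 ratios of 4.24 and 4.59, and the part of that in the Sox6 reads was not tested.

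At the common peak in the first of 17 introns of Ncam1, 144 kb from its start, 93 and 55 Sox6 reads (31.2 and 37.5 RPM) lay in the 450 bp around the centre, against 11 and 16 input reads (0.501 and 0.660 RPM). The log2 ratio was 5.85 (SE 0.44), which placed the peak 12th of the 1066 common peaks, whose median was 3.52. The peak was called on these reads, so the ratio describes it and carries no test. The signal was narrow. Sox6 gave 34.5 and 42.2 RPM per kb within 0.5 kb of the centre and 1.47 and 1.09 RPM per kb between 0.5 and 3 kb away. In the segments of Ncam1, the ratio of Sox6 to input was 2.58 and 2.81 in the fifth, which holds the peak, and between 0.863 and 1.62 in the others.

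The second common peak of Ncam1 lay 16.1 kb upstream of its start and was smaller. It had 15 and 12 Sox6 reads (5.02 and 8.17 RPM) against 13 and 11 from input, a log2 ratio of 3.62 (SE 0.46) that ranked 474th. The common peak of Neo1, in intron 22 of 27 and 145 kb from the start, had 12 and 7 reads (4.02 and 4.77 RPM) against 11 and 12, with a log2 ratio of 3.15 (SE 0.49), 756th in rank. In all 3 windows both Sox6 libraries exceeded both inputs.

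**Figure D4:**
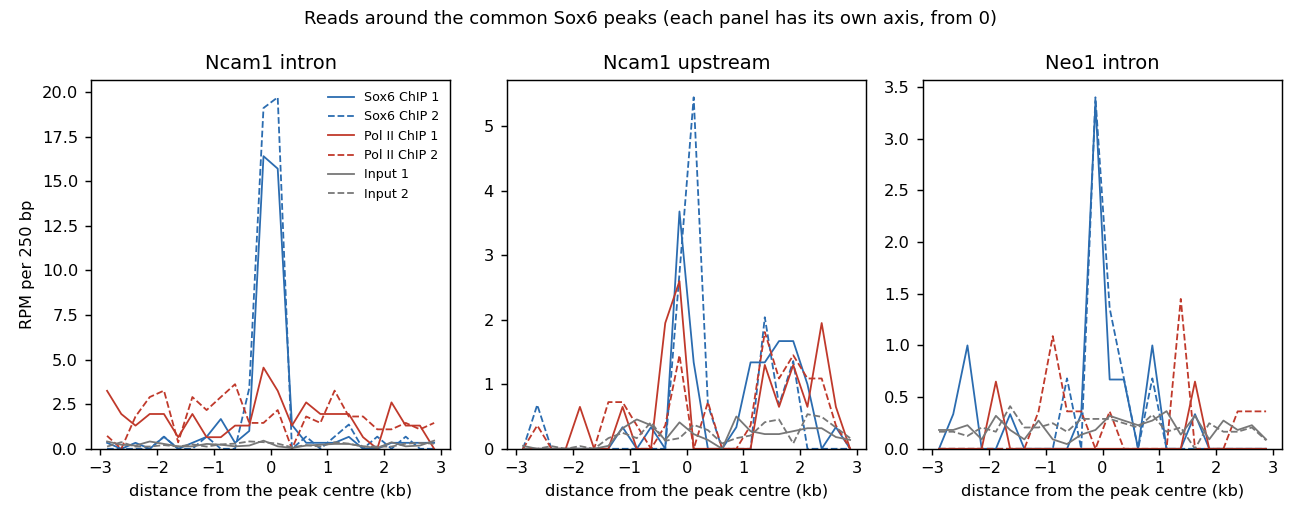
RPM in bins of 250 bp around the centres of the 3 common Sox6 peaks, with solid lines for replicate 1, dashed lines for replicate 2 and a separate axis for each panel. In the Ncam1 intron Sox6 rises sharply at the centre (34.5 and 42.2 RPM per kb within 0.5 kb) over a lower level of Pol II along the window, while the peaks upstream of Ncam1 and in Neo1 rest on 15 and 12 and on 12 and 7 Sox6 reads.

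Pol II reads had no part in choosing the Sox6 windows, but the same inputs did, as the control in calling the peaks. Both Ncam1 windows had more Pol II than input, beside 58.4% of all common peaks (1.50% were lower), and the Neo1 window did not pass. The intronic window had 11 and 9 Pol II reads against 11 and 16 from input (log2 ratio 3.09, SE 0.48, adjusted p = 1.43e-09). That is close to the ratio over the whole Ncam1 body, 3.07. The upstream window had 4 and 4 reads against 13 and 11 (2.02, SE 0.61, adjusted p = 0.00217), and it lost its call without Input replicate 1 (adjusted p = 0.0951) and without Input replicate 2 (adjusted p = 0.118). The Neo1 window had 0 and 1 Pol II reads against 11 and 12 (-0.31, SE 0.95, adjusted p = 0.803).

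Peaks of the lists made for each Sox6 replicate were found near more of the genes. The list of replicate 1 has 8 peaks in or within 20 kb of 5 of them, beside 9.54% of all genes. That of replicate 2 has 10 near 6 of them, beside 6.59%. These shares are not matched to gene length, which reaches 342 kb in Adam12. Only Boc had none in any list. Of these 18 peaks, 6 are the single-replicate forms of the 3 common peaks. Sox6 reads of the other replicate were compared with the input of the same replicate number (two-sided, exact binomial test, adjusted over the whole list). Each such test sets 1 amplified library against 1 input, so its p covers counting error only and no spread between replicates. From replicate 1, 6 of 8 peaks had more Sox6 than input in replicate 2, beside 67.0% of the list, and from replicate 2, 8 of 10 had so in replicate 1, beside 84.4%. With the reads of the deposited interval alone, 2 and 3 peaks passed, beside 31.2% and 45.6% of the lists, and all of these were forms of the common peaks. Each call named below for a peak of 1 list was lost with that count. The forms of the common peaks were kept because both replicates called them, which fixes their direction. Without them 3 of 5 and 5 of 7 peaks passed, beside 50.7% and 62.9% of the lists without such peaks.

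As a description, the replicate 1 form of the Ncam1 intron peak had a log2 ratio of 5.82 in replicate 2, and the replicate 2 form 5.90 in replicate 1. For the upstream peak the values were 4.17 and 2.88, and the replicate 1 form of the Neo1 peak had 2.98. The Ncam1 intron peak was thus the strongest of the 3 in either replicate.

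Tmem8c and Cdh15, the genes with the most Pol II, had Sox6 peaks in replicate 2 alone. The peak of Tmem8c lay 2395 bp past the end of the gene, where the interval printed above ends in a repeat of GAGC and holds none of the motifs searched. Around it lay 8 and 8 Sox6 reads against 10 and 8 from input, and also 24 and 63 Pol II reads. In replicate 1 the log2 ratio was 2.57 (exact test, adjusted p = 0.000945). Cdh15 had a pair of peaks in intron 1. The nearer, 1.42 kb from the start, holds both an E-box and a Sox core and had 4 and 5 Sox6 reads against 8 and 18 (log2 ratio 1.96 in replicate 1, exact test, adjusted p = 0.0538). The farther, at 2.98 kb, had 6 and 9 against 7 and 9 (2.67, exact test, adjusted p = 0.00335). Pol II reads in these windows were 33 and 78, and 20 and 40, far more than Sox6 reads.

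The other genes had scattered single-replicate peaks, all in introns or upstream. Cdh2 had one in intron 1 from replicate 1 (12 and 3 Sox6 reads against 10 and 13, exact test, adjusted p = 0.081) and one in intron 2 from replicate 2 (8 and 6 reads against 13 and 14, exact test, adjusted p = 0.0029). Adam12 had 3, of which those in introns 1 and 4 came from replicate 2 (5 and 7 Sox6 reads in each) and that in intron 2 from replicate 1 (15 and 4 reads), and all 3 passed (exact test, adjusted p from 0.00681 to 0.024). Around the intron 1 peak of Adam12 there were 4 and 10 Pol II reads, or 2.60 and 3.62 RPM against 0.410 and 0.371 RPM of input. Over its body and in each of the 10 segments the gene lay below input. Ncam1 had 3 more, of which 1 passed. The weakest, from replicate 2, had 6 Sox6 reads in that replicate and 1 in the other (exact test, adjusted p = 1).

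**Figure D5:**
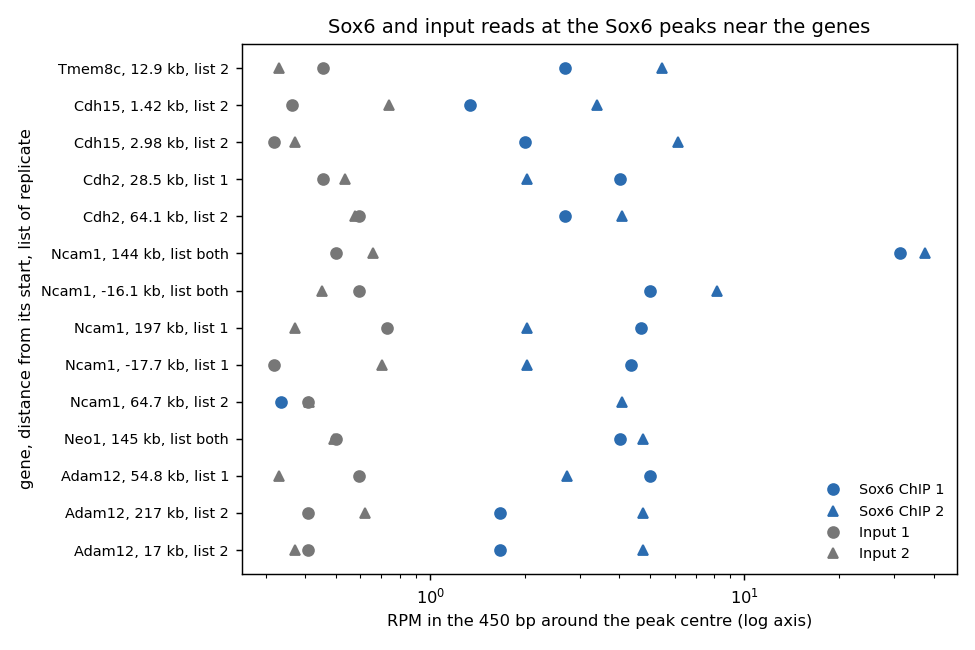
RPM in the 450 bp around each Sox6 peak in or within 20 kb of the 8 genes, on a log axis, for both Sox6 and both input libraries; labels give the gene, the distance of the peak from its start and the list that holds it, and the single-replicate forms of the 3 common peaks and 1 peak not reported here are left out. The Ncam1 intron peak at 31.2 and 37.5 RPM stands apart. The peaks of 1 list mostly show less Sox6 in the other replicate, which their choice from 1 list favors.

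A list of 48 other genes of myoblast adhesion and fusion gives the setting. At the starts, 29 of 46 tested had more Pol II than input and 1 had less, with a median log2 ratio of 2.05, beside 40.2% and 1.41% of all genes. Over the bodies, 31 of 47 were higher and 10 lower, beside 36.8% and 26.4% of all genes, and the median was 0.96. Gm7325, an older symbol of Mymx, encodes the small peptide that completes membrane fusion with myomaker, and it had the highest Pol II level of the list, 26.3 and 22.3 RPKM. Next were Hfe2 (hemojuvelin, a ligand of neogenin) at 16.9 and 14.6 RPKM, the tetraspanin Cd81 at 10.6 and 12.6, the small GTPase Cdc42 at 4.67 and 5.46, and Dysf (dysferlin, a membrane repair protein) at 4.81 and 4.98.

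By role, the counts are small and stand beside 40.2% of all genes higher and 1.41% lower at starts, and 36.8% higher and 26.4% lower over bodies. Of the cadherins and catenins, 3 of 4 starts were higher, all of catenins (Ctnna1, Ctnnb1 and Ctnnd1), while Cdh11 had a log2 ratio of 1.29 (adjusted p = 0.153). Over the bodies the same 3 of 5 were higher and Cdh4 lower. Among ligands and partners of Cdon, Boc and Neo1, 5 of 7 starts were higher (Rgma, Rgmb, Hfe2, Gas1 and Ptch1), and 4 of 7 bodies were higher and 1 lower. The polysialyltransferases, which add polysialic acid to Ncam1, were both higher at their starts, but over the bodies St8sia2 was higher (log2 ratio 1.58) and St8sia4 lower (-0.53). Of the metalloproteinases related to Adam12, neither passed at the start and both were higher over the body, Adam19 at 2.39 and Adam9 at 0.47. Of 11 actin remodelling genes, 6 starts were higher, and over the bodies 8 were higher and Dock1, Dock5 and Elmo1 lower. Of the phosphatidylserine receptors, 1 of 2 starts tested was lower (Stab2), and the bodies of Bai1, Bai3 and Stab2 were all lower, from -1.68 to -0.89. Signalling genes downstream of Cdon and of cadherins had 3 of 4 starts and 4 of 4 bodies higher. Among ferlins, Ehd2 and annexins, 4 of 5 starts and 4 of 5 bodies were higher. Other surface adhesion proteins had 5 of 8 starts higher, and 5 of 8 bodies higher and 1 lower. The start of Gm7325 was higher.

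Common Sox6 peaks lay in or within 20 kb of 9 of the 48 genes (11 peaks), again beside 4.26% of all genes, a share not matched to gene length. Hfe2 had one 0.597 kb upstream of its start, with 14 and 10 Sox6 reads against 10 and 18 from input, and it alone in the list had more Sox6 than input at the start (log2 ratio 1.73, adjusted p = 0.0319). The window at its start includes the peak. Trio, a guanine nucleotide exchange factor that acts downstream of M-cadherin, had one inside the gene with 21 and 12 reads against 4 and 7, and another 2.85 kb upstream with 10 and 8 against 12 and 13. Iqsec1, an activator of Arf6, had a pair inside the gene, with 27 and 15 reads against 11 and 15 at the larger. Rgmb (12 and 12 reads), Adam19 (11 and 8) and Myof, a ferlin (10 and 6), each had one inside the gene. Those of Gm7325, Wasl and Stab2 lay outside the gene and nearer to another gene, which was Capn11, Lmod2 and Gm16271. At 10 of the 11 windows Pol II exceeded input, beside 58.4% of all common peaks, with that of Stab2 close to the threshold (adjusted p = 0.0493). The exception was the smaller window of Iqsec1, with 0 and 3 Pol II reads (log2 ratio 0.03, adjusted p = 0.975). Over the bodies Sox6 was higher than input in 6 of 47 genes (Cdh4, St8sia2, Cd81, Trio, Iqsec1 and Dysf) and lower in 1 (Bai3), beside 4.64% and 1.51% of all genes.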

How the data were processed

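The authors aligned the reads with Bowtie 0.12.5 at default parameters to NCBI Build 37 (mm9), kept reads that map to 1 place, called peaks with SISSRs (fragment length 450 bp) with input as control, and took Sox6 peaks within 50 bp of each other as common. PCR ran for 18 cycles, and fragments of 300 to 600 bp were sequenced. The deposited files hold positions of reads and of peaks, with no counts or normalization, and scores given with the Pol II peaks were not used. Repeated positions (2.96% to 7.88% of reads) were kept. Reads of Input replicate 1 were 36 bp long and all others 39 bp.

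Reads were counted by their 5′ ends on the longest GENCODE model (same build) of each gene named in RefSeq, of which 21282 matched by symbol and 2548 by an older symbol. Values in RPM and RPKM were computed here from the deposited positions. For each antibody, limma 3.58.1 (R 4.3.3) with a trend was fitted to log2 RPM with 0.5 reads added, against both inputs, two-sided, for regions with at least 10 reads over the 4 libraries (no filter at peaks). Because 0.5 reads weigh more in shallow libraries, ratios of low counts to input are biased upward. The fits were run on simulated counts. Of 50 starts with a 4-fold change, 16 were called for Pol II and 27 for Sox6, and with an 8-fold change 43 and 47. The simulated ChIP and input libraries shared the same dispersion, so a spread that differs between them was not covered. Python 3.11.15, numpy 2.4.6, pandas 2.3.3 and scipy 1.17.1 did the rest. Floors for counts of 0 rest on 3 reads and, like the binomial tests between single libraries, cover counting error only.

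Alternatives were wider or narrower regions, each repeated position kept a single time, other added values, no filter, another scaling, voom weights, the replicate block and each library left out. The 8 genes, the 48 related genes and the tests were chosen with earlier results of these data known. The genes named are the 8, Actb, Myh3, the related genes with a common peak and the 5 with the highest Pol II level. Members of marker and role groups named beside counts were picked after their values were seen. A single-replicate Sox6 peak, included in the counts, is not reported here.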

Additional observations from a re-analysis of the deposited data

How the results depend on the processing

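Among the 8 genes, Pol II was higher at 7 starts under every alternative run except 500 bp windows. There 6 passed, and Neo1 and Adam12 had too few reads to be tested. Adam12 passed as lower at the start (1 gene) with an equal value in RPM added and with voom weights, and its start turned to 0.13 with 2 reads added. Over bodies the counts stayed at 5 higher and 1 lower, and scaling to reads away from peaks gave 7 higher, beside 9345 of all 19822 genes. Start windows held few reads of either antibody, which limits what could be detected there. With an equal value in RPM added, Sox6 over bodies gave 0 higher and 0 lower, for the 8 genes and for all genes.

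Calls over all genes moved more. Starts lower in Pol II numbered 317, and 16 with 500 bp windows, 7 with 2 reads added (13676 higher), 3107 with equal RPM, 58 with the other scaling and 1302 with voom, and bodies lower 2882 with the other scaling. Starts higher in Sox6 numbered 91, and 431 with 500 bp windows, 159 with the shortest model, 7 with 2 reads added, 0 with equal RPM, 905 with no filter (2 lower, 1 of the 8 genes higher) and 205 with voom (9 lower). Bodies higher in Sox6 numbered 1514 with 2 reads added and 1393 with the other scaling, and 2 of the 8 genes were higher with these, with voom and with repeated positions counted once. At common peaks, Pol II was lower at 4 with positions counted once or voom and 7 with the other scaling, and higher at 951 with 2 reads added. The Neo1 peak turned to 1.02 with 2 reads added, 0.19 with the other scaling and 0.06 without Pol II replicate 1 (-0.68 without replicate 2). For start against body, 9123 were higher with 2 reads added (Adam12 0.94), and 162 higher and 60 lower with equal RPM, with 0 of the 8 genes higher and 1 lower. Cross-replicate calls numbered 2 and 3 with the deposited interval alone (31.2% and 45.6% of the lists passed), and 3 and 5 without the peaks that match a common one, a count chosen after seeing the data. The causes were not tested.

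Leaving out 1 library at a time assumes that the lone library varies like the others. Pol II gave 6884 to 11320 starts higher and 0 to 3268 lower (0 to 1 of the 8 genes lower), 6179 to 8278 bodies higher and 3298 to 7025 lower, and 302 to 617 common peaks higher and 7 to 22 lower (1 to 2 of the peaks near these genes higher). Sox6 gave 0 to 9071 starts higher and 0 to 1938 lower (0 to 6 of the 8 genes higher), and 164 to 6888 bodies higher and 35 to 3095 lower (1 to 5 and 0 to 1 of the 8 genes). Start against body gave 0 to 7899 higher and 0 to 1615 lower (0 to 4 and 0 to 1 of the 8 genes), and the difference ran from -0.64 to 0.32 in Cdh15 (above 0 without Pol II replicate 1), from -0.44 to 0.16 in Tmem8c (above 0 without Input replicate 1) and from -0.04 to 0.57 in Cdon (below 0 without Input replicate 1).

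The replicate numbers were not shown to pair the libraries: same-numbered differences correlated at -0.009 and -0.058 between Pol II and input and at 0.023 and 0.047 between Sox6 and input, at starts and bodies. These correlations cannot exclude pairing, since start windows held a median of only 3 and 2 Sox6 reads and 2 and 3 Pol II reads. The study called peaks with the input of each ChIP experiment as background, and the labels say no more than the shared numbers. With the replicate number as a block, 140 starts were lower in Pol II, 341 starts higher in Sox6 (1 of the 8 genes, Ncam1, adjusted p = 0.0241), 2471 bodies higher and 1081 lower in Sox6 (3 of the 8 genes higher, with Cdh15 at adjusted p = 8.64e-05 and Tmem8c at 0.00309), and 340 lower at the start than over the body.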
